A study of Mus musculus with 19 samples.

Results

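Perigonadal fat of C57BL/6 mice made obese by Ensure was compared with that of mice made obese by a high-fat diet, both after 24 hours without feeding. Members were chosen by their labels alone: the 5 Ensure fasted libraries (numbers 2, 5, 7, 8 and 17, titled OIOneg) and the 4 HFD fasted libraries (numbers 23, 24, 26 and 28, titled ALOneg), which are 9 of the 19 libraries of the series. HFD stands for a 60% high-fat diet, and Ensure is a sweetened liquid nutrition drink; how it was given is not stated, and neither age nor sex is given. The mice had reached peak weight before food was withdrawn, and the whole fat pad beside the gonads was used. The other 10 libraries, 6 Ensure fed and 4 HFD fed, were taken at peak weight with food and serve here for the same diet contrast in other libraries. No lean group is analysed here, so each level is read only against the other diet. Whether each library came from its own animal is not stated, and the p-values reflect only how far these samples vary.

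White fat stores fatty acids as triglyceride in adipocytes. With food, insulin drives the making of fatty acids from sugar and their storage. Without food, insulin falls, glucocorticoids rise and stored triglyceride is broken down. Between the adipocytes lie stromal cells, which make the collagen and elastin network, and immune cells. In obese fat, macrophages gather around dying adipocytes and take up lipid, and mast cells, which hold proteases in granules, become more frequent. Interferons induce a shared set of antiviral genes in all of these cell types.

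Depth in the 9 fasted libraries was 12.82 to 21.52 M counts over genes, with Ensure fasted 2 the shallowest. The share of reads assigned to no gene was 45.92% in HFD fasted 28 and 43.25% in Ensure fasted 5, against 35.26% to 38.79% in the other 17 libraries, and the part of this in the results was not tested. The larger part of it was alignments that were not unique, 27.7% in HFD fasted 28 and 25.97% in Ensure fasted 5. Reads outside any gene made up 17.32% and 16.58%. Levels below are TMM-scaled CPM, that is, counts relative to an effective library size. They are given in the order Ensure fasted 2, 5, 7, 8 and 17 and HFD fasted 23, 24, 26 and 28. A single value in parentheses after a gene is its log2 fold change, Ensure over HFD. Adipocyte markers were high in every library: Adipoq, which encodes adiponectin, was at 1112 to 3222 CPM and Fabp4, a fatty acid carrier, at 5070.4 to 12294 CPM. Genes of the reproductive tract stood out in some libraries of both groups. The 15 tested tract epithelium markers summed to 522, 1278, 12.2, 9.62 and 34.7 CPM with Ensure and 12.5, 509.9, 503 and 11 CPM with HFD, and the epididymis markers to 515, 9601, 38.5, 25.9 and 20.1 CPM with Ensure and 11.5, 50.7, 17.5 and 17.2 CPM with HFD. The sperm cell markers summed to 1066, 252, 13.2, 1.71 and 21.8 CPM with Ensure and 3.7, 495, 110.3 and 3.94 CPM with HFD. Ensure fasted 2 and 5 and HFD fasted 24 had the highest sums of sperm cell and epididymis genes, and with Ensure fed 10 and 12 they are called the 5 tract-rich libraries. The kidney and tract cadherin Cdh16 was also high in HFD fasted 26, HFD fed 21 and Ensure fed 16, and leaving out all 8 keeps Ensure fasted 7, 8 and 17 and HFD fasted 23 and 28. Per the labels, Ensure fasted 2, 5, 7 and 8 were sequenced in lane 5, Ensure fasted 17 in lane 6 and all HFD libraries in lane 7. No lane held both fasted groups, so diet and lane cannot be told apart among the fasted libraries, and no value within a lane exists for them.

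Ensure fat after fasting had lower levels of 9 of 12 mast cell genes and 5 of 15 genes of lipid-laden macrophages than HFD fat, and higher levels of 9 of 25 collagens, 3 of 16 fatty acid synthesis genes, 4 of 24 interferon-responsive genes and 4 of 24 glucocorticoid-responsive genes. Of 16015 genes tested, edgeR called 261 higher and 191 lower with Ensure at an adjusted p under 0.05, which is 1.63% and 1.19% of the genes (2.82% in either direction). The median log2 fold change over all tested genes was 0.02. For 326 of the 452 called genes, 200 higher and 126 lower, the libraries of the 2 groups did not overlap; over all tested genes this held for 3.99% (2.51% with Ensure above, 1.48% with Ensure below). The count depends on single libraries: it was 221 without Ensure fasted 17, 231 without Ensure fasted 7, 209 without HFD fasted 23, 227 without HFD fasted 28, 694 without Ensure fasted 5, 696 without Ensure fasted 8 and 767 without HFD fasted 24. In all 9 such omissions 126 of the genes (64 higher, 62 lower) remained called. Without the 5 tract-rich libraries 434 genes were higher and 183 lower (2.79% and 1.18%; 3.97% in all), and without the 8 libraries 667 were higher and 931 lower (4.37% and 6.10%; 10.5% in all). Scaling by library size alone turned the split to 215 higher and 308 lower. With sequencing lane as a term, in which the offset of lane 7 rests on the fed libraries and among Ensure libraries on Ensure fed 18 alone, edgeR called 0 genes (0.0% in either direction, lowest adjusted p = 0.341, 495 genes at an unadjusted p under 0.05); all 452 genes kept their direction in that fit and 248 of them had an unadjusted p under 0.05. In a fit of the 9 fasted libraries alone, only Gnal was called. These last 2 counts apply to every call below. Where 1 member of a list was called, its share ran from 3.85% (chemokines and cytokines) to 8.33% (B cell and smooth muscle markers), the 2 red blood cell markers aside. Set against 2.82% of all genes, such a call describes its gene and not its list.

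**Figure D1:**
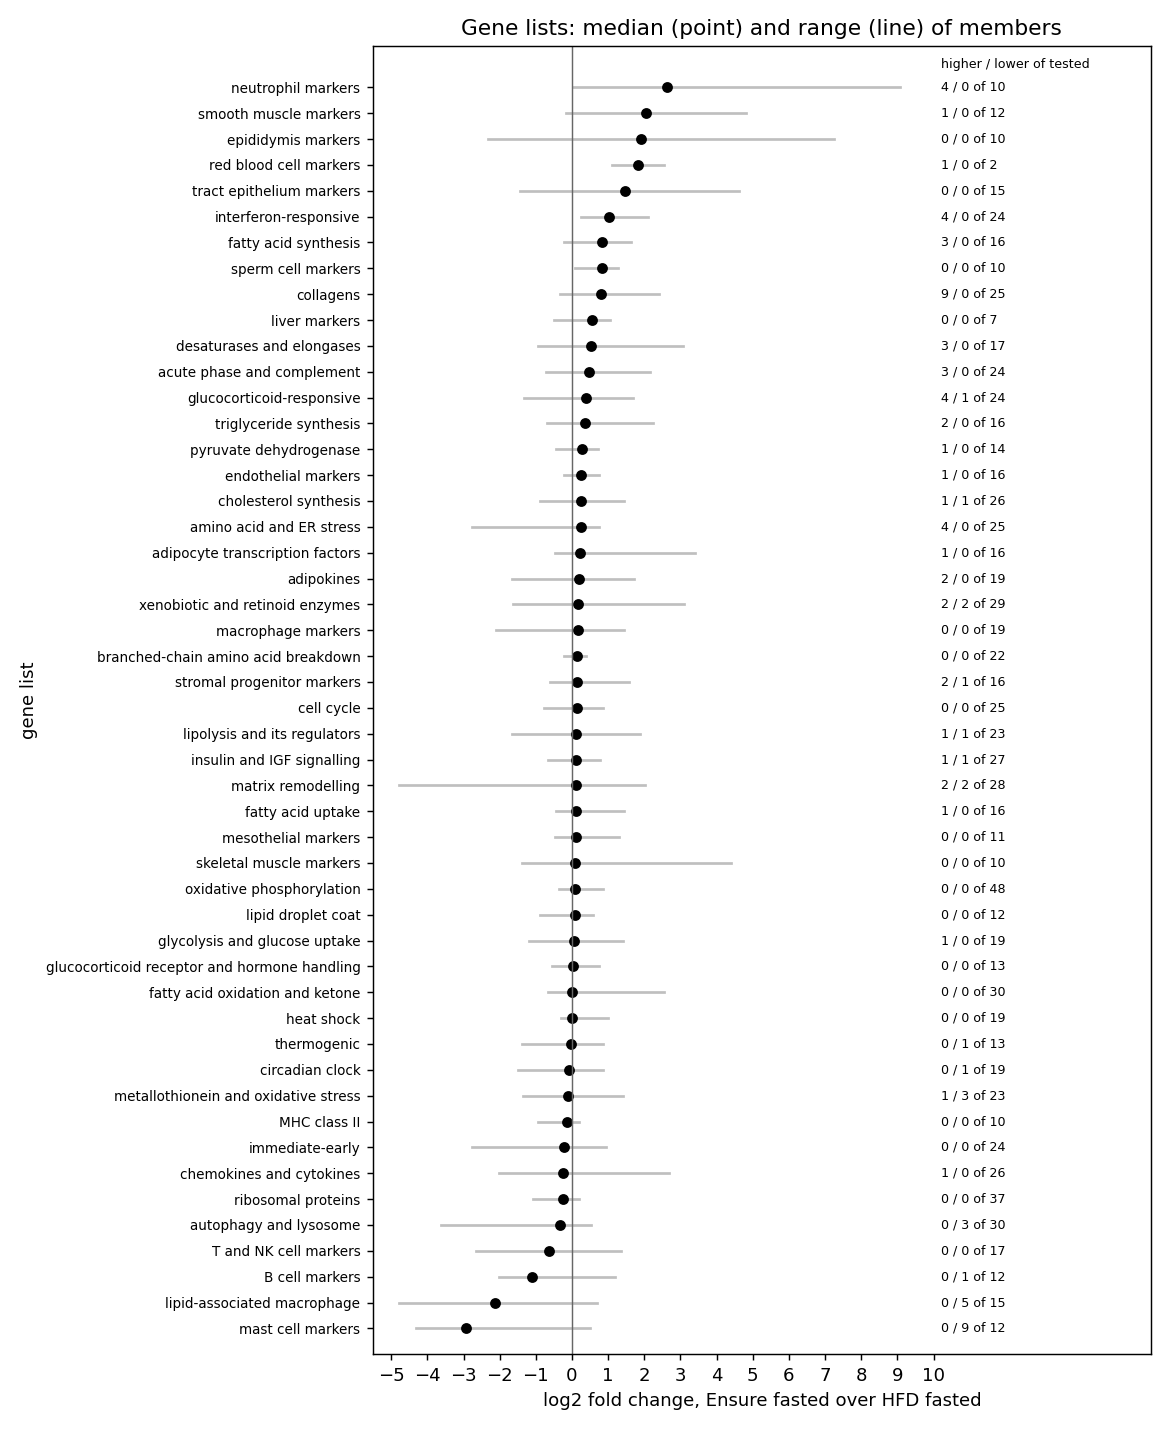
Gene lists ordered by the median log2 fold change of their tested members, Ensure fasted over HFD fasted libraries; the point is the median, the line runs from the lowest to the highest member, and the figures at the right give members called higher and lower of those tested. Mast cell markers (median -2.92) and lipid-associated macrophage genes (-2.13) lie at the bottom and neutrophil markers (2.62) at the top, where the highest member is Ngp, a fitted value with no count in any HFD library.

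Mast cell genes were lower with Ensure. Of 12 tested markers 9 fell, with a median log2 fold change of -2.92 over the 12, against 1.19% of all genes called lower. The chymases Cma1 and Mcpt4 and the tryptase Tpsb2 are granule proteases. Mcpt4 stood at 4.2, 9.3, 5.12, 2.9 and 4.16 CPM with Ensure and 66.7, 13.2, 16.3 and 109 CPM with HFD (log2 fold change -3.32 ± 0.57 SE, adjusted p = 0.00538). Cma1 stood at 5.6, 9.0, 6.62, 3.23 and 3.5 CPM with Ensure and 72.1, 13, 12.8 and 123 CPM with HFD (log2 fold change -3.30 ± 0.60 SE, adjusted p = 0.00768). Tpsb2 stood at 6.72, 12.2, 6.2, 3.69 and 4.72 CPM with Ensure and 95.2, 21.6, 17.4 and 129.8 CPM with HFD (log2 fold change -3.29 ± 0.55 SE, adjusted p = 0.00532). All 5 Ensure libraries lay below all 4 HFD libraries for these 3 genes, and among the HFD libraries numbers 23 and 28 were several times higher than 24 and 26. Tpsb2 and Tpsab1 are near-identical copies whose reads can be split, so each is uncertain by itself.

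Mrgprb1, a receptor of the Mrgpr family, stood at 1.4, 1.75, 1.45, 0.593 and 0.964 CPM with Ensure and 27.9, 3.22, 4.57 and 20.5 CPM with HFD (log2 fold change -3.50 ± 0.59 SE, adjusted p = 0.00532). It too was lowest in the Ensure libraries and highest in HFD fasted 23 and 28. Outside the list, Mrgprx2 (-3.76, adjusted p = 0.00864) and Mrgprb2 (-3.43, adjusted p = 0.0241) also fell; mouse Mrgprb2 is a receptor for basic peptides that release mast cell granules. Genes of this family share sequence, so that reads may be assigned among them with error. Fcer1a (-2.89) and Ms4a2 (-2.95), subunits of the high-affinity IgE receptor, the carboxypeptidase Cpa3 (-2.58), Tpsab1 (-4.32) and the monoamine transporter Slc18a2 (-1.67) completed the 9 members (adjusted p = 0.0152 to 0.0443). Kit, Gata2 and Hdc were not called, and the 1 member of the list above 0, at a log2 fold change of 0.51, was among them. The call of Cpa3 ended without HFD fasted 23 at adjusted p = 0.052. Those of Tpsab1, Ms4a2, Fcer1a and Mrgprb2 ended without Ensure fasted 7 or 17 or HFD fasted 23 or 28 at adjusted p = 0.0526 to 0.0883. That of Slc18a2 ended without Ensure fasted 2, 5, 7, 8 or 17 or HFD fasted 23 or 28 at adjusted p = 0.0501 to 0.166 and without the 5 libraries at adjusted p = 0.0581.

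The 12 markers summed to 101, 167, 74.6, 44.5 and 75.8 CPM with Ensure and 423, 135, 134 and 547 CPM with HFD. The 2 HFD libraries with the lower sums, 24 and 26, are those with the higher tract epithelium sums given above, and the part of this in the result was not tested. Of the 2 HFD libraries with the higher sums, number 28 had the 45.92% of reads assigned to no gene, while number 23, at 36.62%, lay among the rest. Without the 8 libraries, which compares Ensure fasted 7, 8 and 17 with HFD fasted 23 and 28, the median over the list was -4.10. That fit keeps the HFD libraries with the highest sums and the Ensure libraries with the lowest, so a larger difference follows from the choice of libraries. The number of markers called was 8 without the 5 libraries, and it was 4 without HFD fasted 23 and 5 without HFD fasted 28 or Ensure fasted 7 or 17. In whole tissue, fewer cells of a type and less RNA per cell cannot be told apart.

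Genes of lipid-associated macrophages, the cells that engulf lipid in obese fat, were lower with Ensure in 5 of 15 members (median -2.13), while 0 of 19 general macrophage markers were called by edgeR (median 0.16; 5 at an unadjusted p under 0.05; DESeq2 called 1 higher and 2 lower, limma voom 9 higher). EdgeR called 3 of the general markers higher without the 5 libraries, 4 higher and 2 lower without the 8, and 0 to 3 in single omissions. Single general markers ran from -2.1 to 1.43 in log2 fold change, so some lay as low as the median of the lipid-associated list. The 2 groups of libraries overlapped for all 15 lipid-associated members. The 15 summed to 17554, 10540, 31394, 29063 and 28613 CPM with Ensure and 29054, 15980, 18841 and 41028 CPM with HFD, so that the sums overlapped too. Of the 15 members 14 lay below 0 and 1 above, at 0.69. DESeq2, limma voom and the edgeR fits without the 5 and without the 8 libraries each called 1 member higher. Whether the lists differ was not tested. Itgax, which encodes the integrin CD11c, stood at 25.7, 11.6, 27.8, 58.6 and 22.3 CPM with Ensure and 336, 43.9, 96.2 and 558 CPM with HFD (log2 fold change -3.15 ± 0.58 SE, adjusted p = 0.00864). Ctsk, a collagen-cutting cathepsin, stood at 38.3, 22.3, 38.1, 56.6 and 37.4 CPM with Ensure and 357, 44.4, 85.1 and 590.4 CPM with HFD (log2 fold change -2.80 ± 0.55 SE, adjusted p = 0.0133). Mmp12, the macrophage elastase, stood at 27, 10.5, 65.2, 224 and 71.4 CPM with Ensure and 1310.1, 129, 276 and 7111 CPM with HFD (log2 fold change -4.79 ± 1.01 SE, adjusted p = 0.0196). HFD fasted 23 and 28 were above every Ensure library for these genes, whereas HFD fasted 24 lay inside the Ensure range for all 3.

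The transmembrane glycoprotein Gpnmb (log2 fold change -3.61 ± 0.90 SE, adjusted p = 0.0394) and the tetraspanin Cd9 (-1.80, adjusted p = 0.0242) were the other members that fell, and Ensure fasted 8, at 529 CPM of Gpnmb, lay well above the other Ensure libraries. The lipid receptor Trem2, which marks these cells, missed the threshold at 10.1, 6.05, 19, 101 and 19.3 CPM with Ensure and 236, 29.4, 62.2 and 689.97 CPM with HFD (log2 fold change -3.04 ± 0.84 SE, adjusted p = 0.0594), and so did the lysosomal protein Cd68 (-2.1, adjusted p = 0.0745). Both passed without Ensure fasted 8 (-4.23 and -2.75, adjusted p = 0.0129 and 0.0227), without HFD fasted 24 (adjusted p = 0.0259 and 0.031), without HFD fasted 26 (adjusted p = 0.0404 and 0.0431) and without the 8 libraries (adjusted p = 0.0305 and 0.0236). Ensure fasted 8 was the Ensure library with the most Trem2, and HFD fasted 24 and 26 were the HFD libraries with the least. For Trem2, passing without them therefore follows from the choice of libraries and is no separate support. Without HFD fasted 28 the log2 fold changes of Trem2 and Cd68 were -1.84 and -1.07. The calls of Mmp12 and Cd9 ended without Ensure fasted 7 or 17 or HFD fasted 28 at adjusted p = 0.0511 to 0.0864, and without HFD fasted 28 their log2 fold changes were -2.86 and -0.84. The Gpnmb call ended without Ensure fasted 2, 7 or 17 or HFD fasted 23 or 28 at adjusted p = 0.0667 to 0.132 and without the 5 libraries at adjusted p = 0.0559. Over the list, 2 members were called without HFD fasted 28 or Ensure fasted 7 or 17, 12 without Ensure fasted 8, 10 without HFD fasted 24 and 8 without HFD fasted 26, and 4 were called lower without the 5 tract-rich libraries. Of 30 autophagy and lysosome genes 3 fell: Ctsk and Gpnmb again, and Sqstm1, an autophagy receptor (log2 fold change -0.45 ± 0.12 SE, adjusted p = 0.0478). The Sqstm1 call ended without Ensure fasted 2 or 17 or HFD fasted 23 or 28 at adjusted p = 0.0584 to 0.0923 and without the 5 libraries at adjusted p = 0.16. Of these 30 genes edgeR called 12 lower and 1 higher without the 8 libraries and 1 lower without the 5. The fit without the 8 keeps HFD fasted 23 and 28, which had the highest sums over these genes, 22797 and 30629 CPM. EdgeR called 10 without HFD fasted 24, 9 without Ensure fasted 8, 6 without HFD fasted 26, 4 without Ensure fasted 5, 2 without Ensure fasted 7 and 1 without Ensure fasted 2 or 17 or HFD fasted 23 or 28.

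**Figure D2:**
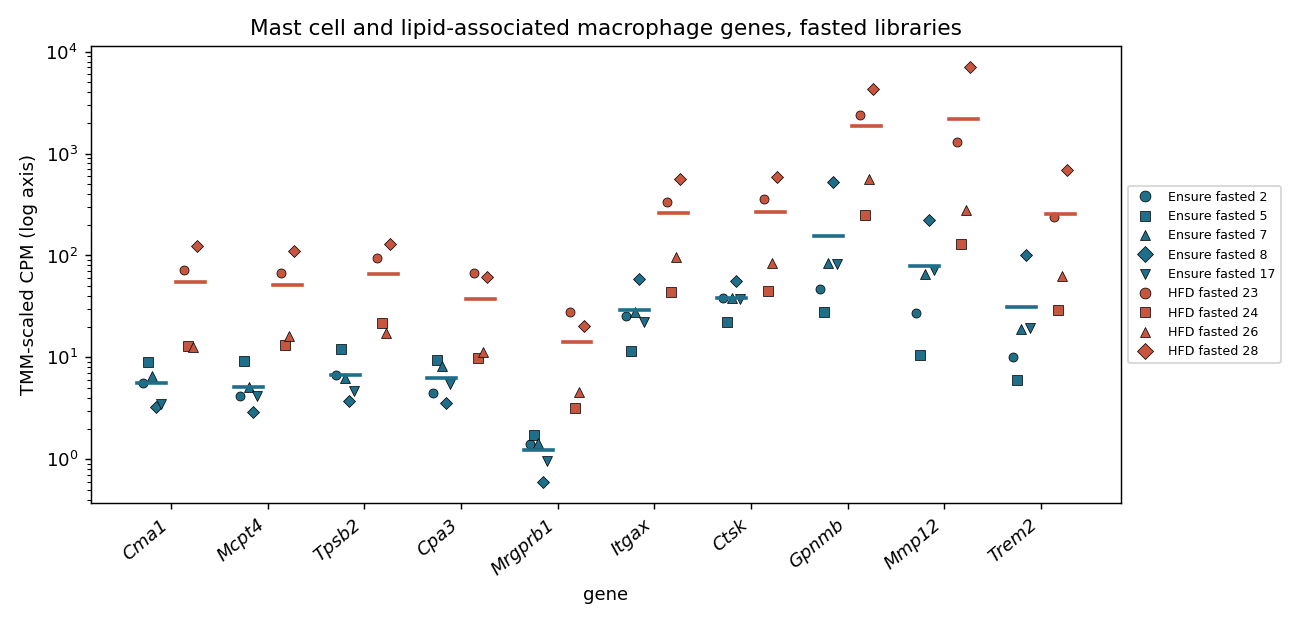
Levels of 5 mast cell genes (left) and 5 lipid-associated macrophage genes (right) in each fasted library, as TMM-scaled CPM on a log axis; marker shapes give the library and the bar the group mean. All Ensure libraries lie below all HFD libraries for the 5 mast cell genes, and HFD fasted 23 and 28 are the highest HFD libraries for all 10 genes.

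Of 10 neutrophil markers 4 rose with Ensure, at low levels (1.63% of all genes were called higher). The median log2 fold change of the 10 was 2.62, and it was 1.51 without the 5 and 1.35 without the 8 libraries. The markers summed to 171, 19.7, 46.3, 43.3 and 43.8 CPM with Ensure and 27.9, 11.1, 18.9 and 58.3 CPM with HFD, so that the sums overlapped and HFD fasted 28 lay above every Ensure library other than number 2. S100a9, a calcium-binding alarmin, stood at 54.4, 2.0, 6.99, 4.74 and 4.31 CPM with Ensure and 0.812, 0.261, 0.256 and 0.493 CPM with HFD (log2 fold change 4.98 ± 0.91 SE, adjusted p = 0.00798). Ngp, a neutrophil granule protein, stood at 14.3, 0.75, 1.39, 0.527 and 0.203 CPM with Ensure and 0, 0, 0 and 0 CPM with HFD. With no count in any HFD library, Ngp was at least 20.9-fold higher by the Ensure mean and at least 4.56-fold by the Ensure median, taking 3 counts per library (0.164 CPM) as the floor. Ensure fasted 2 held most of the counts of both genes, and the other 4 Ensure libraries still lay above all HFD libraries. For Ngp the lowest of them, 0.203 CPM in Ensure fasted 17, was near the 0.146 CPM that 3 counts give there. With 0 counts with HFD, Ngp can have passed the filter only through other libraries, so its direction and lack of overlap are no separate support. Without Ensure fasted 2 the log2 fold change of S100a9 was 3.28 (adjusted p = 0.00389) instead of 4.98. Retnlg, a resistin-like secreted protein (4.62), and the chemokine receptor Cxcr2 (2.93) also rose (adjusted p = 0.028 to 0.0369), with log2 fold changes of 2.40 and 2.06 without Ensure fasted 2. The Retnlg call ended without HFD fasted 23 or 28 at adjusted p = 0.078 to 0.0888. The Cxcr2 call ended without Ensure fasted 2, 7 or 17 or HFD fasted 23, 24, 26 or 28 at adjusted p = 0.0535 to 0.0839, without the 5 libraries at adjusted p = 0.0589 and without the 8 libraries at adjusted p = 0.0593. The formyl peptide receptor Fpr2, found on neutrophils and macrophages, was higher by 2.40 (adjusted p = 0.0269). The Fpr2 call ended without Ensure fasted 17 or HFD fasted 23, 26 or 28 at adjusted p = 0.0517 to 0.0686 and without the 8 libraries at adjusted p = 0.0712. With a minimum count of 50 in the filter 1 of the markers was called, and 2 were called without HFD fasted 23 or 28. Ensure fasted 2 was also the library richest in sperm-cell genes, which summed to 1066 CPM there; the part of this was not tested.

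Among other immune genes, Ccl8, a chemokine that attracts monocytes and T cells, was the 1 called member of 26 chemokines and cytokines, at 109, 25, 53, 60.6 and 53.9 CPM with Ensure and 13.9, 13.4, 30.1 and 15.3 CPM with HFD (log2 fold change 1.72 ± 0.38 SE, adjusted p = 0.0217). The call ended without HFD fasted 23 or 28 at adjusted p = 0.0753 to 0.0769. The 1 called of 12 B cell markers was Cd22, an inhibitory co-receptor of B cells, at 2.8, 3.45, 3.91, 11.7 and 4.82 CPM with Ensure and 26.3, 12.1, 9.52 and 26.5 CPM with HFD (log2 fold change -1.80 ± 0.41 SE, adjusted p = 0.0269). Cd22 lay below the HFD range in every Ensure library other than number 8, and its call ended without Ensure fasted 7 or 17 or HFD fasted 23 or 28 at adjusted p = 0.0613 to 0.0774 and without the 5 libraries at adjusted p = 0.0802. No T and NK cell marker of 17 and no MHC class II gene of 10 was called by edgeR, with 6 and 2 at an unadjusted p under 0.05; DESeq2 called 1 T and NK cell marker higher and 2 lower and limma voom 1 lower, and for MHC class II these tools called 0 and 3 lower.

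Interferon-responsive genes were above 0 in log2 fold change for all 24 tested members (median 1.03, against 0.02 over all genes), of which 4 passed the test. Irf7, a transcription factor that amplifies the interferon response, stood at 37.2, 47.7, 67.6, 177 and 151 CPM with Ensure and 20.9, 25.5, 25.5 and 18.2 CPM with HFD (log2 fold change 2.09 ± 0.45 SE, adjusted p = 0.0215). Ifit1, which binds foreign RNA, stood at 11.6, 19, 28.2, 46 and 44.4 CPM with Ensure and 8.57, 7.04, 9.74 and 7.61 CPM with HFD (log2 fold change 1.86 ± 0.39 SE, adjusted p = 0.0196). Oas3, a sensor of double-stranded RNA, stood at 5.74, 3.9, 8.79, 15.5 and 13 CPM with Ensure and 3.09, 2.09, 2.31 and 2.19 CPM with HFD (log2 fold change 1.95 ± 0.49 SE, adjusted p = 0.0389), and Ifi44 rose by 1.78 on the log2 scale (adjusted p = 0.0269). The groups did not overlap for these 4 genes, and in each of them Ensure fasted 7, 8 and 17 lay above Ensure fasted 2 and 5, the 2 libraries rich in tract genes. Without the 5 tract-rich libraries 10 of the 24 genes rose. Among the members that missed the threshold was Isg15, a ubiquitin-like protein, at a log2 fold change of 1.32 (adjusted p = 0.060).

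The interferon calls rest on few libraries. The count was 0 without HFD fasted 23 or 28, 1 without Ensure fasted 17, 11 without Ensure fasted 2 and 8 without Ensure fasted 5. The Ifit1 call ended without HFD fasted 23 or 28 at adjusted p = 0.0566 to 0.0588. Those of Irf7 and Ifi44 ended without Ensure fasted 17 or HFD fasted 23 or 28 at adjusted p = 0.0511 to 0.0692. That of Oas3 ended without Ensure fasted 7, 8 or 17 or HFD fasted 23, 24, 26 or 28 at adjusted p = 0.0579 to 0.107. Among fed libraries 0 members were called by edgeR, at a median of 0.47.

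The promoters of Ifit1 and Oas3 are shown because both rose with Ensure and both hold the letters of the interferon-stimulated element close to the start. They were picked for this match, do not stand for the genes called higher, and show no link between the calls and the motif. The element, searched as GAAA, any 2 bases and GAAA on both strands after the values had been seen, was looked for in the 250 bases before and 50 bases after the start of each gene in RefSeq, build GRCm38.p6, which is a later build than that of the counts. The 250 bases before the start are printed, with matches in capitals. Ifit1 (chr19:34640639-34640888, strand +) holds 2 matches, the first beginning 104 bases before the start, and Oas3 (chr5:120777660-120777909, strand -) holds 1, at 75 bases before the start.
Ifit1: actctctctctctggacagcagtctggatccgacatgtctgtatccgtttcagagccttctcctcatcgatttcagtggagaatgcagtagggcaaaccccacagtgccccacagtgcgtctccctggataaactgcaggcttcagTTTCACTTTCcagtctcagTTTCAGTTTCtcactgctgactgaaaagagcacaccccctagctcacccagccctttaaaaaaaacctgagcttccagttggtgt
Oas3: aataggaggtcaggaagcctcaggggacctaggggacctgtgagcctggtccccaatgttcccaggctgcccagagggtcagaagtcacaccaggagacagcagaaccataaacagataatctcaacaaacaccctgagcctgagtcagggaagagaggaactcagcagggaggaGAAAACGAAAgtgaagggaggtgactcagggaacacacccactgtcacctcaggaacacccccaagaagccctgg
The motif was present in 3.99% of the 27025 promoters in the table. The share among the interferon-responsive genes is not given, since 19 of the 24, fewer than 80%, had a promoter in the table. A match describes the letters and does not show that a factor is bound.

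**Figure D3:**
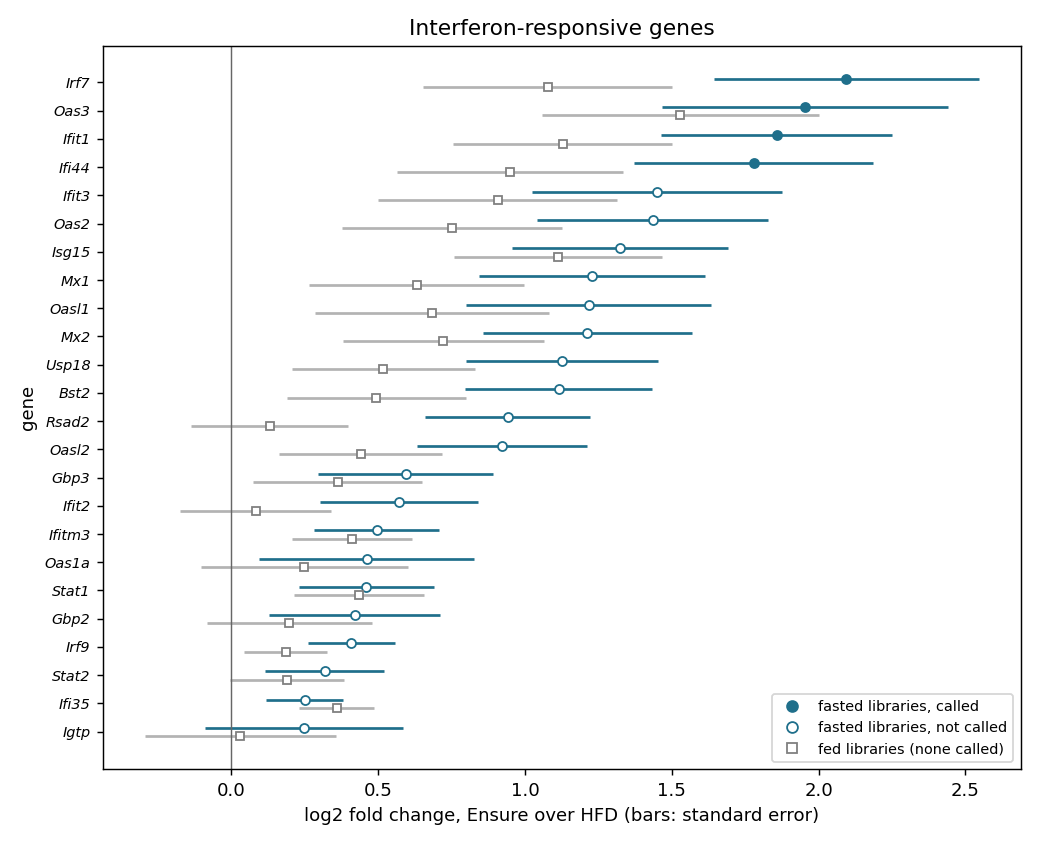
Log2 fold change, Ensure over HFD, of the 24 tested interferon-responsive genes among fasted libraries (circles, filled where called) and among fed libraries (squares), with standard errors as bars. All 24 circles lie above 0, and the 4 filled circles are Irf7, Oas3, Ifit1 and Ifi44.

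Of 25 collagens, which stromal cells make for the most part, 9 rose with Ensure (median 0.81). Col5a3, a chain of type V collagen, stood at 1210.2, 598, 1459.8, 1415 and 1434 CPM with Ensure and 529.6, 520.3, 443 and 555 CPM with HFD (log2 fold change 1.26 ± 0.20 SE, adjusted p = 0.0049). Col1a1, of the main fibrillar collagen, stood at 1515, 892, 882, 1664 and 983 CPM with Ensure and 463, 478, 389.9 and 671 CPM with HFD (log2 fold change 1.25 ± 0.26 SE, adjusted p = 0.0183). Ensure fasted 5 was the lowest Ensure library for Col5a3 yet lay above all HFD libraries. Col3a1 (1.38), Col4a1 (1.01), Col4a2 (1.07), Col4a5 (1.09), Col5a1 (0.95), Col6a2 (1.07) and Col14a1 (1.49) made up the 9, so that fibrillar, basement membrane and microfibrillar collagens were among them (adjusted p = 0.0189 to 0.0471). The Col1a1 call ended without HFD fasted 23 at adjusted p = 0.0652, without the 5 libraries at adjusted p = 0.0595 and without the 8 libraries at adjusted p = 0.0893. The Col4a5 call ended without HFD fasted 23 at adjusted p = 0.075 and without the 5 libraries at adjusted p = 0.0708. That of Col3a1 ended without HFD fasted 23 at adjusted p = 0.0621. Those of Col4a1 and Col4a2 ended without Ensure fasted 7 or 17 or HFD fasted 28 at adjusted p = 0.0511 to 0.076. That of Col5a1 ended without Ensure fasted 7 or 17 or HFD fasted 23, 26 or 28 at adjusted p = 0.0507 to 0.0897. That of Col6a2 ended without Ensure fasted 7 or 17 or HFD fasted 23, 26 or 28 at adjusted p = 0.050002 to 0.0906 and without the 8 libraries at adjusted p = 0.05004. That of Col14a1 ended without Ensure fasted 7, 8 or 17 or HFD fasted 23, 26 or 28 at adjusted p = 0.0539 to 0.118. Without the 5 tract-rich libraries 11 collagens rose, and the count was 3 without HFD fasted 23, 4 without HFD fasted 28, 4 without Ensure fasted 7, 4 without Ensure fasted 17 and 14 without Ensure fasted 5.

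Eln, which encodes elastin, stood at 1128, 585, 570.1, 347 and 694 CPM with Ensure and 144, 237, 177 and 104 CPM with HFD (log2 fold change 2.01 ± 0.32 SE, adjusted p = 0.0045), with no overlap between the groups. Fbn1, the fibrillin of elastic fibres whose cleaved end is the hormone asprosin, stood at 939, 421, 1411, 1887 and 1361 CPM with Ensure and 444, 467, 367 and 195 CPM with HFD (log2 fold change 1.71 ± 0.36 SE, adjusted p = 0.0196). The Fbn1 call ended without HFD fasted 28 at adjusted p = 0.0591. Against these, 2 matrix proteases fell: Mmp12, above, and Mmp11, the stromelysin 3 of stromal cells, which stood at 20.5, 14.9, 25.2, 20.9 and 30.1 CPM with Ensure and 145, 60.2, 68.9 and 191 CPM with HFD (log2 fold change -2.38 ± 0.28 SE, adjusted p = 0.000729). Every HFD library held more Mmp11 than any Ensure library. These are the 4 called members of 28 matrix remodelling genes. Chst11, which sulfates chondroitin chains, fell (-0.96, adjusted p = 0.0031). The secreted glycoprotein Adamtsl2 rose (log2 fold change 2.1 ± 0.36 SE, adjusted p = 0.00532) and so did the protease Adamts8 (2.88, adjusted p = 0.0382), the latter led by Ensure fasted 5 at 18.5 CPM; without that library its log2 fold change was 1.63, and its call ended without Ensure fasted 5 or HFD fasted 23, 26 or 28 at adjusted p = 0.0516 to 0.124 and without the 5 libraries at adjusted p = 0.0801.

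Of 16 stromal progenitor markers, the growth factor Clec11a (0.92) and Pi16, a marker of early progenitors (1.27), rose, and the proteoglycan decorin, Dcn (-0.62), fell (adjusted p = 0.0203 to 0.0377). Dcn stood at 1011, 859, 1384, 1397 and 1419 CPM with Ensure and 2225, 1583, 1910.5 and 1758 CPM with HFD, without overlap. The Clec11a call ended without HFD fasted 23 at adjusted p = 0.0727, without the 5 libraries at adjusted p = 0.0715 and without the 8 libraries at adjusted p = 0.104. The Pi16 call ended without Ensure fasted 7, 8 or 17 or HFD fasted 23, 24 or 28 at adjusted p = 0.0506 to 0.107. The Dcn call ended without HFD fasted 23 at adjusted p = 0.075, without the 5 libraries at adjusted p = 0.0576 and without the 8 libraries at adjusted p = 0.084. Vwf, the von Willebrand factor of endothelium, was the 1 called of 16 endothelial markers (log2 fold change 0.75 ± 0.18 SE, adjusted p = 0.0369). The Vwf call ended without Ensure fasted 2, 7 or 17 or HFD fasted 23, 24 or 28 at adjusted p = 0.0563 to 0.127.

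Of 16 genes that make fatty acids 3 rose with Ensure (median 0.84). Fasn, fatty acid synthase, stood at 1621, 1248, 3783, 3642 and 3864 CPM with Ensure and 849, 1062, 1228 and 516 CPM with HFD (log2 fold change 1.63 ± 0.36 SE, adjusted p = 0.0232). Acly, which makes cytosolic acetyl-CoA from citrate, stood at 213, 361, 318, 334 and 321 CPM with Ensure and 182, 195, 189 and 121 CPM with HFD (log2 fold change 0.85 ± 0.21 SE, adjusted p = 0.0369). Slc25a1, which carries that citrate out of mitochondria, stood at 240.1, 141, 398, 353 and 365 CPM with Ensure and 137, 139, 158 and 124 CPM with HFD (log2 fold change 1.10 ± 0.24 SE, adjusted p = 0.024). For Fasn and Slc25a1 the tract-rich libraries Ensure fasted 2 and 5 were the lowest of the Ensure group, and without the 5 such libraries 9 of the 16 genes rose. The calls of Fasn and Slc25a1 ended without Ensure fasted 7 or 17 or HFD fasted 23 or 28 at adjusted p = 0.0533 to 0.0772. That of Acly ended without Ensure fasted 5, 7, 8 or 17 or HFD fasted 23, 26 or 28 at adjusted p = 0.0514 to 0.13. The count was 0 without Ensure fasted 7 or 17 or HFD fasted 23 or 28, 6 without Ensure fasted 2, 8 without Ensure fasted 5 and 5 without HFD fasted 24.

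Elovl6, which lengthens the 16-carbon product of fatty acid synthase, stood at 32.1, 97.6, 204, 239 and 183 CPM with Ensure and 18.1, 20.4, 22.3 and 10.4 CPM with HFD (log2 fold change 3.08 ± 0.49 SE, adjusted p = 0.00432), and it remained called in all 9 omissions. The lowest Ensure value, in Ensure fasted 2, was above the highest HFD value. Hacd2 (0.69) and Tecr (0.52), which complete each round of elongation, rose by less (adjusted p = 0.0242 to 0.0384), and with Elovl6 they are the 3 called of 17 desaturases and elongases. The Hacd2 call ended without Ensure fasted 7 or HFD fasted 28 at adjusted p = 0.0531 to 0.0744. The Tecr call ended without Ensure fasted 5, 7, 8 or 17 or HFD fasted 23, 24, 26 or 28 at adjusted p = 0.0521 to 0.142, without the 5 libraries at adjusted p = 0.051 and without the 8 libraries at adjusted p = 0.0624. Scd1, the stearoyl-CoA desaturase, ranged from 18824 to 49037 CPM with Ensure and from 14618 to 53319 CPM with HFD (log2 fold change 0.077 ± 0.34 SE, adjusted p = 0.919).

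Among 26 cholesterol genes edgeR called 1 higher and 1 lower, the latter not named here. The counts were again 1 and 1 without the 5 libraries, and 2 and 1 without the 8. The gene called higher was Tm7sf2, a sterol reductase (1.42, adjusted p = 0.0369; 0.81 without Ensure fasted 5, where it was at 42.5 CPM). The Tm7sf2 call ended without HFD fasted 23, 24, 26 or 28 at adjusted p = 0.0568 to 0.111, without the 5 libraries at adjusted p = 0.0745 and without the 8 libraries at adjusted p = 0.111. Of 16 triglyceride synthesis genes 2 rose. Lpin3, a phosphatidate phosphatase, stood at 26.3, 21.7, 31.9, 21.8 and 27.1 CPM with Ensure and 13.6, 13.4, 12.5 and 14.2 CPM with HFD (log2 fold change 0.94 ± 0.13 SE, adjusted p = 0.00208). Mogat2, a monoacylglycerol acyltransferase, stood at 5.11, 4.8, 26, 26.7 and 26.1 CPM with Ensure and 5.12, 3.43, 4.01 and 2.47 CPM with HFD (log2 fold change 2.24 ± 0.53 SE, adjusted p = 0.0307), near the HFD values in Ensure fasted 2 and 5 and several times higher in the other Ensure libraries, and its call ended without Ensure fasted 7 or 17 or HFD fasted 23, 26 or 28 at adjusted p = 0.0528 to 0.102. Dgat2, the last enzyme of triglyceride synthesis in fat, was not called (log2 fold change 0.69 ± 0.26 SE, adjusted p = 0.148); it was called without Ensure fasted 5 (0.85, adjusted p = 0.0156), without the 5 libraries (0.95, adjusted p = 0.0432) and without the 8 (1.07, adjusted p = 0.0402).

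Of 23 genes of lipolysis and its control 1 rose and 1 fell. Pnpla3, a triglyceride hydrolase of the droplet surface, stood at 473, 186, 547, 358 and 396 CPM with Ensure and 103, 74, 136 and 114 CPM with HFD (log2 fold change 1.88 ± 0.25 SE, adjusted p = 0.00131), without overlap. Hilpda, which inhibits the main triglyceride lipase and is induced by low oxygen, stood at 21.1, 10.7, 15.5, 22.8 and 15.6 CPM with Ensure and 48, 54.5, 43.9 and 70.1 CPM with HFD (log2 fold change -1.66 ± 0.25 SE, adjusted p = 0.00296), lower in every Ensure library than in any HFD library. Both were called in all 9 omissions. The lipases themselves did not pass: the log2 fold changes of Pnpla2 and Lipe were 0.22 and 0.11 (adjusted p = 0.694 and 0.818). In glucose and fatty acid handling, Hk2, a hexokinase, stood at 93.5, 111, 104, 90.1 and 85.2 CPM with Ensure and 64.3, 64.7, 63.3 and 44.6 CPM with HFD (log2 fold change 0.71 ± 0.12 SE, adjusted p = 0.00532) and was the 1 called of 19 glycolysis and glucose uptake genes. Mpc2, a subunit of the mitochondrial pyruvate carrier, was the 1 called of 14 pyruvate genes (log2 fold change 0.60 ± 0.12 SE, adjusted p = 0.0121), and the fatty acid transporter Slc27a4 the 1 called of 16 uptake genes (log2 fold change 0.76 ± 0.16 SE, adjusted p = 0.0215). The Slc27a4 call ended without HFD fasted 23 or 28 at adjusted p = 0.0708 to 0.0871. The Mpc2 call ended without HFD fasted 23 at adjusted p = 0.0558.

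Of 24 tested glucocorticoid-responsive genes, many of which corticosterone induces during fasting, 4 rose and 1 fell with Ensure (median 0.40). Fkbp5, a co-chaperone of the glucocorticoid receptor and among its steadiest targets, stood at 183, 309, 171, 149 and 129.9 CPM with Ensure and 45.2, 84.8, 66.9 and 38.2 CPM with HFD (log2 fold change 1.68 ± 0.25 SE, adjusted p = 0.00296). Tsc22d3, also called GILZ, stood at 203, 149, 349, 322 and 331 CPM with Ensure and 149.8, 88.3, 137 and 149 CPM with HFD (log2 fold change 1.05 ± 0.22 SE, adjusted p = 0.0191). Klf15, a transcription factor of amino acid and lipid metabolism, stood at 30.4, 25.1, 40.9, 40.1 and 45.5 CPM with Ensure and 18.2, 18.7, 20.03 and 12.7 CPM with HFD (log2 fold change 1.06 ± 0.17 SE, adjusted p = 0.0049). The groups did not overlap for Fkbp5 and Klf15, and for Tsc22d3 they overlapped only where Ensure fasted 5 lay between HFD fasted 28 and 23. Pik3r1, the regulatory subunit of the kinase that insulin activates, rose (log2 fold change 0.78 ± 0.14 SE, adjusted p = 0.00661), and its catalytic partner Pik3cb fell (log2 fold change -0.66 ± 0.12 SE, adjusted p = 0.00806); these are the 2 called of 27 insulin and IGF signalling genes. Fkbp5, Tsc22d3, Klf15, Pik3r1 and Pik3cb were called in all 9 omissions, and Pik3cb had adjusted p = 0.0558 without the 5 tract-rich libraries.

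The member that fell was Gadd45g, a growth arrest gene (log2 fold change -1.34 ± 0.29 SE, adjusted p = 0.0215). The Gadd45g call ended without Ensure fasted 7 or 17 or HFD fasted 28 at adjusted p = 0.0526 to 0.0849. Per1 (0.41), Sgk1 (-0.38), Angptl4 (0.40) and Pdk4 (0.25) were not called (adjusted p = 0.223 to 0.745). Of the 13 genes of the receptor itself and of hormone handling edgeR called 0, with 3 at an unadjusted p under 0.05; DESeq2 called 0 and limma voom 1 higher and 1 lower. Bhlhe41, a repressor in the clock, was the 1 called of 19 clock genes, at 17.6, 19.3, 11.2, 16.5 and 13 CPM with Ensure and 30.8, 25, 26.7 and 90.9 CPM with HFD (log2 fold change -1.48 ± 0.31 SE, adjusted p = 0.0187; -0.84 without HFD fasted 28). In the promoters of the 21 glucocorticoid-responsive genes found in the table, the full glucocorticoid element (AGAACA, any 3 bases and TGTTCT) occurred in 1, that of Sgk1 (0.0111% of all promoters), its first 6 bases AGAACA in 4 (19%, against 21.3%), the E-box CACGTG in 6 (28.6%, against 8.09%), the metal response motif TGCGCNC in 9 (42.9%, against 17.0%) and CCAAT in 13 (61.9%, against 41.1%). These are counts of letters on both strands, the second motif lying within the first. The shares of all promoters include genes not tested here, whereas the list members were all tested. The 2 shares are therefore not of like genes, and an excess is not shown to be particular to this list. The D-box TTATGTAA (1.11% of all promoters), the heat shock element (GAA, any 2 bases, TTC, any 2 bases and GAA; 0.662%) and the PPAR element (AGGTCA, any 1 base and AGGTCA; 0.0481%) had no match in these windows.

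**Figure D4:**
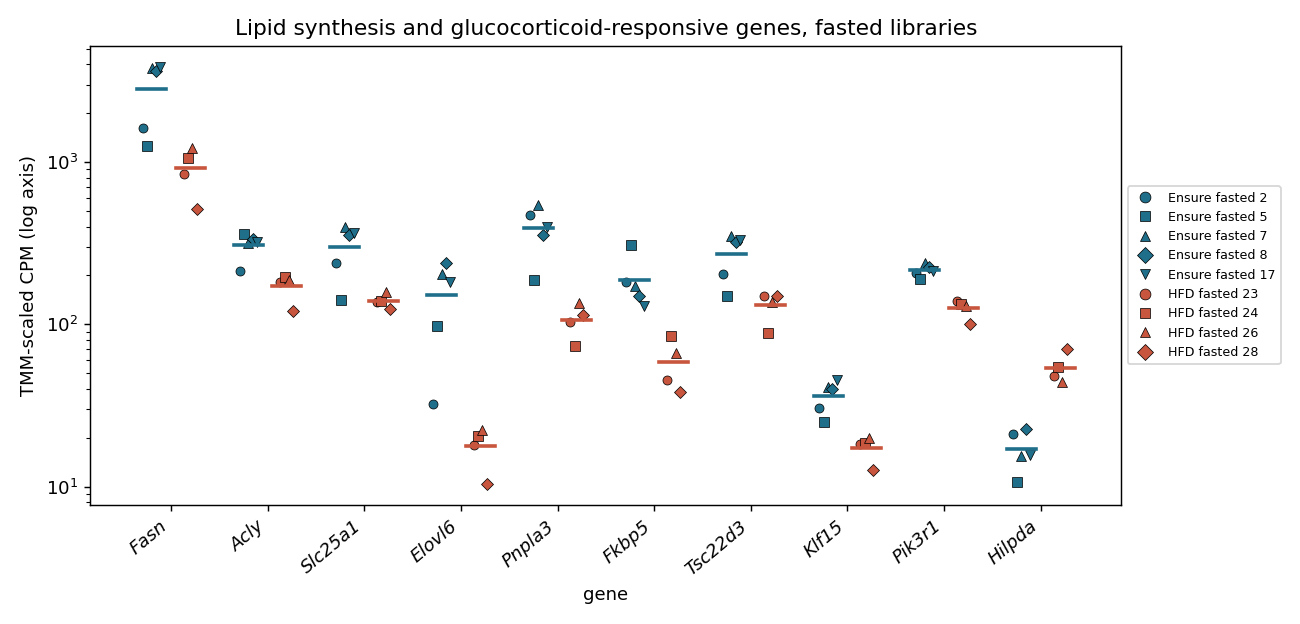
Levels of lipid synthesis genes, Pnpla3 and Hilpda and of glucocorticoid-responsive genes in each fasted library, as TMM-scaled CPM on a log axis; marker shapes give the library and the bar the group mean. For 8 of the 10 genes the Ensure and HFD libraries do not overlap, Slc25a1 and Tsc22d3 being the exceptions, and Hilpda is the 1 gene with the Ensure libraries below.

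Of 25 genes of amino acid and endoplasmic reticulum (ER) stress 4 rose with Ensure, 3 of them for protein folding (median 0.25). The list was not raised throughout: 19 members lay above 0 and 6 below, from -2.77 to 0.76. EdgeR called 0 lower with all libraries and 1 lower without the 8, and DESeq2 and limma voom each called 1 lower. Pdia6, a protein disulfide isomerase, stood at 222, 333, 276, 324 and 279.6 CPM with Ensure and 192, 196, 177 and 187 CPM with HFD (log2 fold change 0.61 ± 0.12 SE, adjusted p = 0.0117). Hspa5, the chaperone BiP, stood at 562, 889, 693, 803 and 689.6 CPM with Ensure and 489.8, 473, 419.8 and 477 CPM with HFD (log2 fold change 0.65 ± 0.14 SE, adjusted p = 0.0217). Pdia4, another isomerase, stood at 115, 159, 136, 160.3 and 145 CPM with Ensure and 106, 111, 97.8 and 88.7 CPM with HFD (log2 fold change 0.50 ± 0.11 SE, adjusted p = 0.0193). The groups did not overlap for these 3 genes, though the steps are small. The serine synthesis enzyme Psat1 was the fourth (log2 fold change 0.58 ± 0.14 SE, adjusted p = 0.0324). The Hspa5 call ended without HFD fasted 23, 26 or 28 at adjusted p = 0.0518 to 0.0665 and without the 8 libraries at adjusted p = 0.0551. The Pdia4 call ended without HFD fasted 28 at adjusted p = 0.0603. The Psat1 call ended without Ensure fasted 7 or HFD fasted 24 or 28 at adjusted p = 0.052 to 0.105, without the 5 libraries at adjusted p = 0.0724 and without the 8 libraries at adjusted p = 0.0609. Pdia6 remained called in all 9 omissions, being the 1 gene of the list called higher without HFD fasted 28.

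The promoters of Hspa5 and Pdia6 are shown because both genes rose and both hold the letters of the ER stress element, CCAAT, any 9 bases and CCACG. It was searched on both strands in the same windows after the values had been seen, and its first 5 bases are themselves the CCAAT motif. The match begins 65 bases before the start in Hspa5 (chr2:34771840-34772089, strand +) and 98 bases before it in Pdia6 (chr12:17266339-17266588, strand +).
Hspa5: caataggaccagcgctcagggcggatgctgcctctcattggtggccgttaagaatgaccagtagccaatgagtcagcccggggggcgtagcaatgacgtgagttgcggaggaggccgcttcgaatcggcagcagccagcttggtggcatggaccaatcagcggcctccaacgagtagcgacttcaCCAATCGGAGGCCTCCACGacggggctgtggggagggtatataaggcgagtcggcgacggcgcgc
Pdia6: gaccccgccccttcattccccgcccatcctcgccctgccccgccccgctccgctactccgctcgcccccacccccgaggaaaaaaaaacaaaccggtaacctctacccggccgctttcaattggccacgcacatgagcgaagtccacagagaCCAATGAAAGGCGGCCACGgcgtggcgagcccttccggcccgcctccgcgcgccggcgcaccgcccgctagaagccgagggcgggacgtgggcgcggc
It was found in 6 of the 23 genes of the list with a promoter in the table (Calr, Canx, Creld2, Hsp90b1, Hspa5 and Pdia6), against 0.137% of all promoters, which include genes not tested. Of those 6 genes 2, Hspa5 and Pdia6, were called.

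Of 24 tested acute phase and complement genes 3 rose with Ensure (median 0.48). The median was 0.77 without the 5 and 1.21 without the 8 libraries, with 4 and 8 genes called higher, and 0 were called without HFD fasted 28. Serpina3n, a protease inhibitor, stood at 825, 319.6, 989, 916 and 834 CPM with Ensure and 374, 282, 411 and 282 CPM with HFD (log2 fold change 1.20 ± 0.27 SE, adjusted p = 0.0247). Serpina3m stood at 12.4, 3.8, 12.1, 14 and 14.9 CPM with Ensure and 2.89, 2.26, 3.29 and 1.81 CPM with HFD (log2 fold change 2.15 ± 0.44 SE, adjusted p = 0.0165). Ensure fasted 5 was the lowest Ensure library for both and lay inside the HFD range for Serpina3n. Orm1, orosomucoid, rose (log2 fold change 1.02 ± 0.26 SE, adjusted p = 0.0442). The Serpina3n call ended without Ensure fasted 7 or 17 or HFD fasted 23 or 28 at adjusted p = 0.0526 to 0.081. The Serpina3m call ended without HFD fasted 28 at adjusted p = 0.0588. The Orm1 call ended without Ensure fasted 7, 8 or 17 or HFD fasted 23, 24 or 28 at adjusted p = 0.0564 to 0.137. Serpina3b, of the same cluster, stood at 13.8, 14.4, 15.7, 12.9 and 11.7 CPM with Ensure and 1.88, 2.91, 2.18 and 0.712 CPM with HFD (log2 fold change 2.82 ± 0.32 SE, adjusted p = 0.000525) and was called in all 9 omissions. The Serpina3 genes are close copies, so reads may be assigned among them with error. Masp1, which starts the lectin pathway of complement, rose at low counts (log2 fold change 2.56 ± 0.31 SE, adjusted p = 0.000838).

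Of 29 xenobiotic and retinoid enzymes 2 rose and 2 fell. The cytochrome Cyp2b10 stood at 1.4, 3.3, 2.71, 1.84 and 1.57 CPM with Ensure and 0.254, 0.13, 0.384 and 0.219 CPM with HFD (log2 fold change 3.10 ± 0.41 SE, adjusted p = 0.00131), a low level throughout. Aldh1a1, which makes retinoic acid, rose (log2 fold change 1.00 ± 0.23 SE, adjusted p = 0.0302), with Ensure fasted 5 at 755 CPM, a log2 fold change of 0.66 without it, and a call that ended without HFD fasted 23 or 28 at adjusted p = 0.090 to 0.112 and without the 5 libraries at adjusted p = 0.0529. The epoxide hydrolase Ephx1 (log2 fold change -0.70 ± 0.14 SE, adjusted p = 0.012) and the carboxylesterase Ces1f (log2 fold change -1.23 ± 0.27 SE, adjusted p = 0.0242) fell. The Ces1f call ended without the 5 libraries at adjusted p = 0.147 and without the 8 libraries at adjusted p = 0.20, where its log2 fold changes were -0.80 and -0.72. Of 23 metallothionein and oxidative stress genes, the glutathione transferases Gstt1 (-0.98) and Gstm1 (-0.65) and the zinc exporter Slc30a1 (-0.34) fell and the transferase Gsta3 rose (0.75; adjusted p of the 4 = 0.0147 to 0.0443). Gstt1 was called in all 9 omissions. The Gstm1 call ended without Ensure fasted 2, 7 or 17 or HFD fasted 28 at adjusted p = 0.0573 to 0.107. The Slc30a1 call ended without Ensure fasted 17 at adjusted p = 0.0511. The Gsta3 call ended without Ensure fasted 5, 7 or 17 or HFD fasted 23, 26 or 28 at adjusted p = 0.0619 to 0.129, without the 5 libraries at adjusted p = 0.0601 and without the 8 libraries at adjusted p = 0.0817.

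Several adipocyte genes did not pass the test. The log2 fold change was -0.20 for Adipoq, 0.42 for Lep, which encodes leptin, and -0.15 for Pck1, which feeds glycerol synthesis (adjusted p = 0.535 to 0.883). Ucp1, the brown fat uncoupler, was at most 3.22 CPM (log2 fold change -0.34 ± 1.54 SE, adjusted p = 0.922). Of 19 adipokines 2 rose, Fbn1 and the insulin-sensitising adipokine Fam132a, also called adipolin (log2 fold change 0.87 ± 0.16 SE, adjusted p = 0.00718). Klf15 was the 1 called of 16 adipocyte transcription factors, and Prdm16, a driver of beige fat, the 1 called of 13 thermogenic genes, lower with Ensure (log2 fold change -0.66 ± 0.16 SE, adjusted p = 0.0306). The Prdm16 call ended without Ensure fasted 7 or 17 or HFD fasted 23 or 26 at adjusted p = 0.063 to 0.0963, without the 5 libraries at adjusted p = 0.061 and without the 8 libraries at adjusted p = 0.0991.

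In 8 other lists edgeR called 0 members with all libraries, and other tools or fewer libraries gave some calls. Without the 8 libraries edgeR called 6 immediate-early genes and 5 ribosomal protein genes lower and 4 branched-chain amino acid genes higher, and of the lipid droplet coat genes 2 higher and 1 lower. It also called 1 oxidative phosphorylation, 1 fatty acid oxidation and 1 heat shock gene higher and 1 cell cycle gene lower there. Without the 5 libraries it called 2 branched-chain, 2 droplet coat and 1 immediate-early gene higher. Single omissions gave up to 5 immediate-early genes and up to 2 in each of the branched-chain and droplet coat lists. They gave up to 1 in each of the oxidative phosphorylation, ribosomal protein and cell cycle lists. Of 48 oxidative phosphorylation genes 4 had an unadjusted p under 0.05, and DESeq2 called 1 higher and limma voom 29 higher (median 0.080). Of 30 fatty acid oxidation and ketone genes it was 4, with 0 by DESeq2 and 2 higher and 3 lower by voom (median -0.010). Of 22 genes that break down branched-chain amino acids it was 2, with 0 by DESeq2 and 8 higher by voom. Of 12 lipid droplet coat genes it was 3, with 1 higher and 1 lower by DESeq2 and 3 higher and 2 lower by voom. Of 24 immediate-early genes it was 8, with 2 higher and 4 lower by DESeq2 and 2 and 2 by voom. Of 19 heat shock genes it was 0, with 0 by DESeq2 and 2 higher and 1 lower by voom. Of 37 ribosomal protein genes it was 8, with 0 by DESeq2 and 1 higher by voom (median -0.26; many have near-identical copies elsewhere in the genome). Of 25 cell cycle genes it was 3, with 1 lower by DESeq2 and 2 higher and 1 lower by voom.

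Markers of other cell types and tissues were set beside these results. Mylk, the smooth muscle myosin light chain kinase, was the 1 called of 12 smooth muscle markers, at 259, 1909, 335, 261 and 341 CPM with Ensure and 126, 159, 178 and 122 CPM with HFD (log2 fold change 2.09 ± 0.49 SE, adjusted p = 0.0303; 1.00 without Ensure fasted 5, adjusted p = 0.00235). Its call ended without HFD fasted 23 or 28 at adjusted p = 0.0953 to 0.102. The list's median was 2.06 with Ensure fasted 5 among the libraries, where it summed to 11611 CPM against at most 1564 CPM in any other fasted library. The median was 0.32 without the 5 libraries, Ensure fasted 5 among them, and 0.67 without the 8. Of 2 tested red blood cell markers, Slc4a1, the band 3 anion exchanger, rose at low counts (2.54, adjusted p = 0.0369). The Slc4a1 call ended without Ensure fasted 2 or 7 or HFD fasted 23, 24 or 28 at adjusted p = 0.0596 to 0.107, without the 5 libraries at adjusted p = 0.127 and without the 8 libraries at adjusted p = 0.0623. Of 15 tract epithelium, 10 epididymis, 10 sperm cell, 11 mesothelial, 10 skeletal muscle and 7 liver markers edgeR called 0, with 1, 3, 0, 0, 4 and 0 at an unadjusted p under 0.05. DESeq2 called 3 epididymis markers higher and 1 skeletal muscle marker lower, and limma voom 3 tract epithelium and 1 mesothelial marker lower and 1 skeletal muscle marker each way. Cdh16 was at 54.2, 34.1, 0.361, 0.264 and 3.3 CPM with Ensure and 0.355, 51.1, 47.5 and 0.383 CPM with HFD and the epididymal gene Crisp1 at 405, 8391, 23.2, 22.1 and 11 CPM with Ensure and 10.6, 10.9, 9.61 and 15.5 CPM with HFD (adjusted p = 0.0782 to 0.91).

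Of the genes with the smallest p that were also called without the 5 tract-rich libraries, Gnal stood first. It encodes the stimulatory G protein subunit best known from olfactory and striatal neurons. Gnal stood at 5.18, 6.9, 5.54, 7.05 and 5.58 CPM with Ensure and 40.3, 43.1, 33.6 and 48.6 CPM with HFD (log2 fold change -2.77 ± 0.25 SE, adjusted p = 5.18e-05). The groups did not overlap, and the gene remained called in all 9 omissions and in the fit of the 9 fasted libraries alone. With lane as a term its log2 fold change was -3.12 (unadjusted p = 9.12e-05, adjusted p = 0.521). Other genes lower with Ensure by this measure were Dock8, a guanine exchange factor of leukocytes (-1.87), Specc1 (-1.45), the chemerin-binding receptor Ccrl2 (-1.16) and the calcium channel subunit Cacna1a (-1.30), beside Mmp11, Hilpda, Slc6a7, Pramef12 and Chst11 (adjusted p = 0.000729 to 0.0031). Dock8 stood at 67.5, 35.1, 94, 98.4 and 78.7 CPM with Ensure and 358, 282, 306 and 149.9 CPM with HFD. Those higher were Mbd1, which binds methylated DNA (0.93), Tcn2, the carrier of vitamin B12 (0.69), the kinase Dmpk (1.23), Tmem45a (0.98) and the neurotensin receptor Ntsr2 (2.24), beside Serpina3b, Masp1, Pnpla3, Cyp2b10 and Lpin3 (adjusted p = 0.000525 to 0.00296). Mbd1 stood at 83.6, 84.7, 106, 81.4 and 82.9 CPM with Ensure and 52.6, 44, 47.4 and 39.9 CPM with HFD.

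Among the genes with the largest folds without overlap, those lower with Ensure were Eef1a2, a muscle and nerve form of the translation elongation factor (mean ± standard deviation 0.363 ± 0.254 CPM with Ensure and 8.54 ± 12.4 CPM with HFD; log2 fold change -4.53), the orphan receptor Gpr50 (-4.17), Pramef12 (-3.64), the muscle protein triadin, Trdn (-3.54), the immune receptor ligand Pianp (-3.41), the proline transporter Slc6a7 (-3.08) and Creg2 (-2.81), next to the mast cell genes (adjusted p = 0.00208 to 0.030). Pianp stood at 4.2, 3.25, 4.16, 8.63 and 3.75 CPM with Ensure and 62.7, 10.6, 15.7 and 114 CPM with HFD, and Slc6a7 at 2.94, 2.85, 1.45, 1.65 and 1.88 CPM with Ensure and 22.9, 6.69, 8.54 and 34.7 CPM with HFD. In both genes HFD fasted 23 and 28 were again the highest, as in the mast cell genes. Without HFD fasted 28 the log2 fold change of Eef1a2 was -2.69. The Eef1a2 call ended without HFD fasted 28 at adjusted p = 0.0777. The Gpr50 call ended without Ensure fasted 2, 7 or 17 or HFD fasted 23 or 28 at adjusted p = 0.0511 to 0.090, and without the 5 libraries its log2 fold change was -7.53. The Trdn call ended without Ensure fasted 17 or HFD fasted 26 at adjusted p = 0.0511 to 0.0523 and without the 8 libraries at adjusted p = 0.0536.

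Higher with Ensure by fold were Svs5, a seminal vesicle protein (3.83), the epithelial transcription factor Trp63 (3.38), Il22ra2, a soluble receptor that binds interleukin 22 (3.30), and the imprinted RNA H19 (2.55), next to genes given above (adjusted p = 0.0198 to 0.049995). Svs5 was highest in Ensure fasted 17, at 16.9 CPM, with a log2 fold change of 2.07 without it. Trp63 was highest in Ensure fasted 5, at 29.5 CPM, with a log2 fold change of 1.92 without it. The part of tract tissue in these 2 genes was not tested. The Svs5 call ended without Ensure fasted 7 or 17 or HFD fasted 23, 24, 26 or 28 at adjusted p = 0.0602 to 0.139, without the 5 libraries at adjusted p = 0.0653 and without the 8 libraries at adjusted p = 0.0729. The Trp63 call ended without HFD fasted 23 or 28 at adjusted p = 0.0693 to 0.0717. The Il22ra2 call ended without HFD fasted 23 or 28 at adjusted p = 0.0519 to 0.062. The H19 call ended without HFD fasted 26 or 28 at adjusted p = 0.0515 to 0.0721, without the 5 libraries at adjusted p = 0.0622 and without the 8 libraries at adjusted p = 0.0916.

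The same diet contrast was read in the fed libraries, none of which enters the fasted groups. Among fed libraries 335 genes were higher and 347 lower with Ensure (2.09% and 2.17%; 4.26% in all). Of these, 91 were higher and 80 lower in both contrasts, which is 37.8% of the fasted calls and 25.1% of the fed calls, and 0 were called in opposite directions. Of the 452 genes called after fasting, 427 (94.5%) had the same direction among fed libraries, against 64.2% of all genes. The test of the difference between the 2 diet contrasts called 0 genes by edgeR (0.0% in either direction, lowest adjusted p = 0.302, 1234 genes at an unadjusted p under 0.05), 65 by DESeq2 and 1170 by limma voom. A gene called after fasting and not with food is therefore not shown to differ between the states by edgeR.

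Side by side, the log2 fold change of Mcpt4 was -3.32 fasted and -3.15 fed, Cma1 at -3.30 and -2.73, and Gnal at -2.77 and -2.43 (adjusted p among fed libraries = 0.00374, 0.00997 and 4.45e-05). Elovl6 was at 3.08 and 2.68, and Eln at 2.01 and 2.06 (adjusted p among fed libraries = 0.00464 and 0.00211). Acly was at 0.85 and 1.86 (adjusted p among fed libraries = 0.00030). Fkbp5 was at 1.68 fasted and 0.36 fed, Tsc22d3 at 1.05 and 0.15, Hilpda at -1.66 and -0.12, and Pdia6 at 0.61 and 0.060. None of these 4 passed among fed libraries (adjusted p = 0.469, 0.795, 0.874 and 0.866), and their differences between the contrasts had adjusted p = 0.383, 0.534, 0.351 and 0.476.

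**Figure D5:**
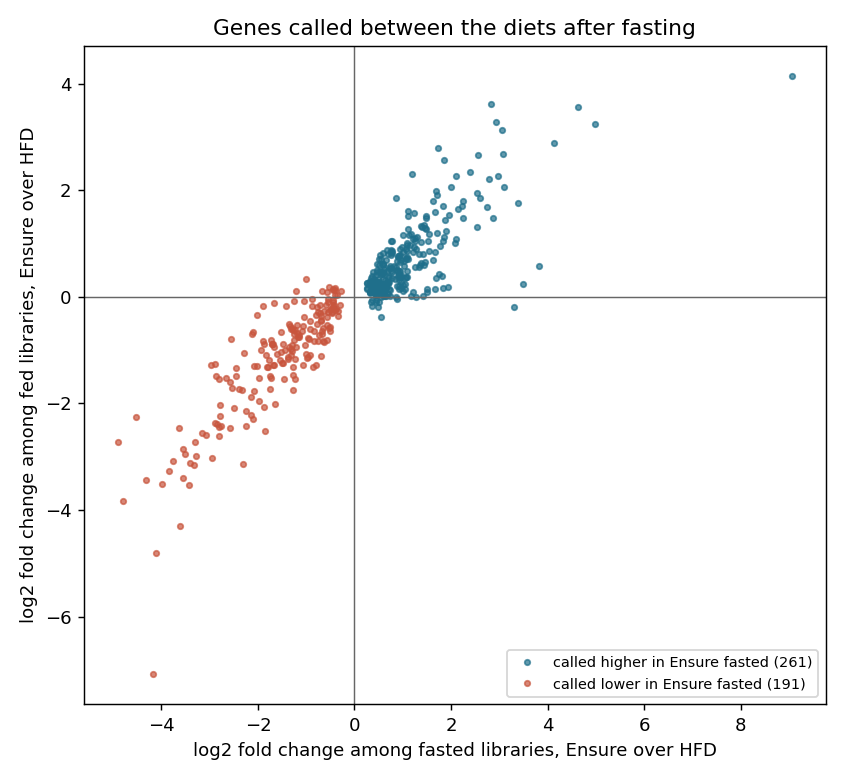
Log2 fold changes, Ensure over HFD, of the 452 genes called after fasting: among fasted libraries on the horizontal axis and among fed libraries, which share no library with them, on the vertical axis. Of the points, 427 have the same sign on both axes. In both contrasts the diets lay for the most part in different lanes.

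The fed libraries also give the 1 diet contrast within a lane. Ensure fed 18 was sequenced in lane 7 with the 4 HFD fed libraries. Of the 452 genes called after fasting, 431 (95.4%) had the same direction in Ensure fed 18 against the HFD fed mean on the log2(CPM + 1) scale, against 62.4% of all genes. This is 1 library, in the fed state.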

How the data were processed

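Poly-A RNA of whole perigonadal fat from C57BL/6 mice was sequenced in 19 libraries. Per the submitters' processing notes, reads were handled with bcl2fastq 1.8.4, TopHat2 2.1 and HTSeq 0.6.1 on mm9, with settings, strand included, not given in the sources used here. Raw counts were deposited by the authors for 24348 genes per library. The summary lines of reads assigned to no gene, alignments that were not unique included, held 35.26% to 45.92% of all lines' counts. They were left out, which leaves 12.82 to 22.55 M counts per library. A count of 0 allows up to 3 counts, or 0.133 to 0.234 CPM by library, for counting error alone. Replicates of a group differed by 11.67 to 272.43 in chi-square per gene over the 16 pairs of fasted libraries checked, so none of these is a repeat of another.

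Groups were taken from the labels. One fit of 4 groups was made with edgeR 4.0.16 (quasi-likelihood F test, TMM scaling, filter at a minimum count of 10, 16015 genes; R 4.3.3), with Benjamini-Hochberg adjustment over all tested genes and calls at an adjusted p under 0.05. Standard errors are the log2 fold change divided by the root of F. The script was tested on simulated data. Alternatives were other scalings, filters at no minimum and at 50, DESeq2 1.42.0, limma 3.58.1 (voom), lane as a term, the fasted libraries alone, and libraries left out.

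Named genes are up to 15 in each direction by fold among called genes without overlap, up to 10 by p among genes also called without the 5 tract-rich libraries (both at a mean of at least 1 CPM, predicted names passed over), up to 4 by p in each list, of which mainly the called ones are printed, and fixed genes. The libraries and the 49 lists (992 symbols, 970 in the files) were chosen with earlier results of these data known. Further called members of the mast cell, collagen and glucocorticoid lists, Trem2, Isg15 and the genes of the closing observations were added after their values were seen. Promoters are RefSeq sequences on GRCm38.p6, matched by symbol.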

Additional observations from a re-analysis of the deposited data

Results flagged for a closer look

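Of 278 groups of values looked at, 5 Ensure or 4 HFD fasted libraries for each of 139 genes, 36 held 1 library far from the rest by Dixon's criterion, which chance meets in about 1 group in 20; most of the genes were chosen for their difference between the diets, and genes of 1 cell type move together. Levels are in CPM, and the others are the remaining libraries of the same group.

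Ensure fasted 8 stood high for Mmp12 at 224 CPM (the others 10.5 to 71.4), Gpnmb at 529 CPM (the others 27.6 to 83.8) and Trem2 at 101 CPM (the others 6.05 to 19.3). Also high there were Cd68 at 322 CPM (the others 34.2 to 117), Cd22 at 11.7 CPM (the others 2.8 to 4.82) and Pianp at 8.63 CPM (the others 3.25 to 4.2). HFD fasted 28 stood high for Mmp12 at 7111 CPM (the others 129 to 1310.1), Bhlhe41 at 90.9 CPM (the others 25 to 30.8) and Eef1a2 at 27.1 CPM (the others 0.782 to 4.46). HFD fasted 28 stood low for Col14a1 at 32.8 CPM (the others up to 109), Acly at 121 CPM (the others 182 to 195) and Hk2 at 44.6 CPM (the others 63.3 to 64.7).

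Ensure fasted 2 stood high for S100a9 at 54.4 CPM (the others 2.0 to 6.99), Ngp at 14.3 CPM (the others 0.203 to 1.39) and Retnlg at 13.7 CPM (the others 0.25 to 1.32). Also high there were Cxcr2 at 3.78 CPM (the others 0.30 to 1.07) and Ucp1 at 3.22 CPM (the others 0.0507 to 0.20). Ensure fasted 2 stood low for Acly at 213 CPM (the others 318 to 361). HFD fasted 26 stood high for Ccl8 at 30.1 CPM (the others 13.4 to 15.3). HFD fasted 23 stood low for Svs5 at 0.203 CPM (the others 0.329 to 0.348). Ensure fasted 17 stood high for Svs5 at 16.9 CPM (the others 0.659 to 1.7). Ensure fasted 7 stood high for Mbd1 at 106 CPM (the others 81.4 to 84.7).

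Ensure fasted 5 stood low for Col5a3 at 598 CPM (the others 1210.2 to 1459.8), Col6a2 at 658 CPM (the others 1301 to 1429) and Col5a1 at 267 CPM (the others 589 to 697). Also low there were Serpina3m at 3.8 CPM (the others 12.1 to 14.9) and Serpina3n at 319.6 CPM (the others 825 to 989). Ensure fasted 5 stood high for Adamts8 at 18.5 CPM (the others 1.87 to 2.87), Tm7sf2 at 42.5 CPM (the others 9.95 to 13.4) and Slc27a4 at 95.1 CPM (the others 50.3 to 54.3). Also high there were Aldh1a1 at 755 CPM (the others 314 to 359), Mylk at 1909 CPM (the others 259 to 341) and Trp63 at 29.5 CPM (the others 2.83 to 3.29). The other high genes were Il22ra2 at 10.1 CPM (the others 0.84 to 2.38), Gpr50 at 4.75 CPM (the others 0 to 0.77) and Crisp1 at 8391 CPM (the others 11 to 405). The Ensure libraries 2 and 5 are the tract-rich ones, and the part of that in these values was not tested.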

How the results depend on the processing

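The count of 452 genes was 451 with RLE size factors, 523 by library size, 346 with no filter, 474 at a minimum count of 50, 1295 with DESeq2, 3418 with limma voom, 617 without the 5 tract-rich libraries, 1598 without the 8 libraries, 0 with lane as a term and 1 in the fasted libraries alone; single omissions gave 209 to 767. The fed count of 682 was 1551 with DESeq2, 5441 with voom, 2 with lane and 213 without the 8 libraries, and single omissions of fasted libraries, which alter the shared spread, gave 611 to 1618. The difference of the contrasts, 0 by edgeR, was 65 with DESeq2, 1170 with voom and 1 without the 8 libraries. With lane as a term and in the fasted libraries alone, the calls of all 8 lists that follow were 0. Mast cell genes (9 lower) gave 4 with voom and 4 to 9 in omissions. Lipid-associated macrophage genes (5 lower) gave 8 by library size, 10 with DESeq2, 8 with voom, 10 without the 8 libraries and 2 to 12 in omissions. Neutrophil genes (4 higher) gave 1 at a minimum count of 50 and 2 to 5 in omissions. Interferon-responsive genes (4) gave 14 with DESeq2, 19 with voom, 10 without the 5 and 13 without the 8 libraries and 0 to 11 in omissions. Collagens (9) gave 15 with DESeq2, 16 with voom and 3 to 14 in omissions. Fatty acid synthesis (3) gave 5 by library size and at a minimum count of 50, 7 with DESeq2, 12 with voom, 9 without the 5 and 10 without the 8 libraries and 0 to 8 in omissions. Glucocorticoid-responsive genes (4) gave 7 with DESeq2, 11 with voom and 4 to 5 in omissions, and ER stress genes (4) gave 13 with voom and 1 to 5 in omissions. In other lists single omissions gave 2 to 9 matrix remodelling, 1 to 5 oxidative stress, 3 to 5 xenobiotic enzymes, 0 to 5 stromal progenitor, 1 to 4 triglyceride synthesis, 1 to 3 desaturase, 0 to 3 cholesterol, 0 to 4 pyruvate, 0 to 3 fatty acid uptake, 1 to 4 adipokine, 2 to 3 lipolysis, 2 to 3 insulin, 0 to 3 chemokine, 0 to 5 smooth muscle and 0 to 4 acute phase calls. The cause of these changes was not tested, other than that fewer libraries enter the smaller fits.

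Of genes that were not called, Trem2, Cd68, Dgat2 and Isg15 passed in some omissions (Isg15 without Ensure fasted 2, at 1.43). Scd1 turned to -0.024 by library size and gave -0.21 to 0.39 in omissions, turning below 0 without Ensure fasted 7 or 8 or HFD fasted 23 or 28. Adipoq turned to 0.23 and 0.39 without the 5 and the 8 libraries. Lipe gave -0.091 to 0.27 in omissions, turning without HFD fasted 28. Pck1 turned to 0.063 with voom, 0.22 with lane and 0.56 and 0.76 without the 5 and the 8 libraries, and gave -0.45 to 0.17 in omissions, turning without HFD fasted 24. Cdh16 turned to 1.86 without the 8 libraries and gave -1.40 to 0.19 in omissions, turning without HFD fasted 24 or 26. Of 122 called genes named here, the call was lost for 2 with RLE size factors, 4 by library size, 12 with voom, 14 with no filter, 22 without the 5 and 18 without the 8 libraries, 122 with lane and 120 in the fasted libraries alone, and in 219 of 1098 gene-by-omission fits; each kept its direction. Without the 8 libraries the log2 fold change moved by over 1.5 times for S100a9 (3.03), Retnlg (3.01), Cxcr2 (1.77), Tm7sf2 (0.69), Mylk (1.35), Dusp9 (-1.20), Fasn (2.48), Col14a1 (2.33), Orm1 (1.55), Gpr50 (-7.56) and Ces1f, and without the 5 for Retnlg (2.43), Tm7sf2 (0.73), Mylk (1.14), Trp63 (2.23), Gpr50 and Ces1f. No paired analysis was possible because the numbers in the titles differ for every library. Depth limits the low genes: at 3 counts the floor was 0.139 to 0.234 CPM in the fasted libraries, near the values of Ngp, Cyp2b10 and Gpr50.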

Other observations

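Outside the gene lists, some genes of lipid handling and signalling were also called in all 9 omissions; they were chosen for this text after their values were seen. Higher with Ensure were Cnr1, the cannabinoid receptor of nerve and fat, at 10.4, 8.0, 9.88, 7.84 and 8.27 CPM with Ensure and 5.07, 5.39, 5.89 and 4.27 CPM with HFD (log2 fold change 0.78 ± 0.13 SE, adjusted p = 0.0049), and Ptger3, a prostaglandin E receptor that restrains lipolysis in fat, at 68.3, 39.1, 94.2, 65.3 and 80.3 CPM with Ensure and 38.4, 31.9, 34.7 and 26.1 CPM with HFD (log2 fold change 1.08 ± 0.21 SE, adjusted p = 0.0109). The groups did not overlap for either gene. Aacs, which makes acetoacetyl-CoA for lipid synthesis (1.22), Mttp, which loads lipid onto lipoproteins (1.66), the antioxidant enzyme Prdx6 (0.94) and the phospholipase Pla2g2e (1.86) were higher too (edgeR adjusted p = 0.00338 to 0.00987).

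Lower with Ensure were Slc40a1, the iron exporter ferroportin, at 22.6, 13.6, 29, 25.8 and 26.2 CPM with Ensure and 51.6, 52.6, 45.2 and 78.6 CPM with HFD (log2 fold change -1.28 ± 0.22 SE, adjusted p = 0.00532), and F3, the tissue factor that starts coagulation (log2 fold change -1.18 ± 0.25 SE, adjusted p = 0.0193; -0.77 without HFD fasted 28). Every Ensure library held less Slc40a1 than any HFD library. Cd274, the checkpoint ligand PD-L1 (-0.89), the phosphatase Dusp9 (-2.09), the bone transcription factor Runx2 (-1.61) and the interleukin 15 receptor chain Il15ra (-0.76) were lower as well (edgeR adjusted p = 0.00415 to 0.0155). With lane as a term these 12 genes, like all others, were not called.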
